A study of Mus musculus with 18 samples.

Results

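Ubiquitin-specific proteases (USPs) are cysteine proteases that cut ubiquitin from proteins or from ubiquitin chains, and they form the largest family of deubiquitinases in mammals. The proteasome degrades proteins that carry ubiquitin chains, and deubiquitinases recover the ubiquitin, edit the chains or spare the protein. The USP genes described here are the rows of the count table whose symbol is Usp followed by a number and, in some, by letters. Usp14 and Usp9y were left out by the rule, and a summed count of at least 180 over the 18 libraries was required. This gave 43 genes of 23420 rows, out of 56 rows with such a symbol. The rule itself uses only the symbol and the summed count, but the genes were chosen with earlier results of these data known. Just inside the minimum were Usp17la with a summed count of 247 and Usp11 with 474, and just outside were Usp17le with 141 and Usp29 with 46. The other 9 rows under it were Usp17ld, Usp18, Usp17lb, Usp50, Usp43, Usp26, Usp44, Usp17lc and Usp51, with summed counts from 36 to 0. The symbol of Usp6nl matches the rule, but its product is a GTPase-activating protein for Rab proteins and not a deubiquitinase. Of the 43 genes, 41 stood at 1 CPM (counts scaled to the library total) or more in every library. Usp11 and Usp17la did not, and each passed the filter on low counts only through the line in which it was high.

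NIH-3T3 cells are mouse embryo fibroblasts that grow as an established cell line. Wild-type (WT) NIH-3T3 cells and an NIH-3T3 line in which Nrf1 had been knocked out with CRISPR/Cas9 (Nrf1KO) were each given DMSO, the vehicle, or 200 nM carfilzomib (CFZ), an irreversible proteasome inhibitor, for 6 h or 24 h. The 6 groups were therefore WT DMSO, WT CFZ 6 h, WT CFZ 24 h, Nrf1KO DMSO, Nrf1KO CFZ 6 h and Nrf1KO CFZ 24 h, each with 3 biological replicates. The study followed how the loss of Nrf1 alters the response to proteasome inhibition. Nrf1 here is the gene Nfe2l1, a transcription factor of the cap'n'collar family that raises proteasome gene expression when the proteasome is inhibited. The hours in DMSO, and whether the Nrf1KO line is 1 clone, are not given in the sources used here, so the line and the loss of Nrf1 cannot be told apart from these libraries.

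Total counts ran from 8333148 to 23917081 per library, with a median of 14419832. Each of the 18 libraries was closest to a library of its own group. Nfe2l1 stood at 457, 437 and 449 CPM in WT DMSO and at 174, 185 and 181 CPM in Nrf1KO DMSO, so its messenger RNA was lower but still counted in the Nrf1KO cells (log2 difference -1.31 ± 0.034 (SE), adjusted p = 1.6e-24). At 6 h of CFZ it stood at 650, 648 and 628 CPM in WT and 413.5, 416 and 427 CPM in Nrf1KO. At 24 h the levels were 559, 555 and 580 CPM in WT and 209.5, 202 and 201 CPM in Nrf1KO. All 8 fibroblast markers examined (Col1a1, Col1a2, Col3a1, Fn1, Vim, Pdgfrb, Thy1 and S100a4) were detected, with a summed level from 8090 to 35700 CPM. The summed level of 4 epithelial markers ran from 0.333 to 13.0 CPM, with Epcam and Krt18 at 0. It ran from 0.120 to 3.83 CPM for 3 endothelial markers and from 0.364 to 5.77 CPM for 3 leukocyte markers, with Cd3e at 0. In these bulk samples, fewer cells of a kind and less RNA per cell cannot be told apart.

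Levels below are CPM scaled by the trimmed mean of M-values (TMM). Changes are log2 differences with their standard error (SE) from edgeR's quasi-likelihood test, fitted to all 11762 genes that passed the low-count filter. A gene was called higher or lower when its Benjamini-Hochberg adjusted p-value over all 11762 genes was under 0.05, with no minimum fold. Replicates were close, with a common biological coefficient of variation of 3.13%, and small differences therefore passed. Because CFZ moved a large part of the transcriptome, the counts of USP genes in each comparison are given with the share of all tested genes called in the same direction.

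Among the USP genes the levels were first compared per kilobase of exon. Usp5, which takes apart free ubiquitin chains, had the highest level, with a mean of 65.5 CPM per kb over the 18 libraries. It was followed by Usp1, which removes ubiquitin from the DNA repair proteins FANCD2 and PCNA, with 54.2 CPM per kb. Usp39, a part of the spliceosome that has no protease activity, came next with 37.5 CPM per kb. In WT DMSO the order of the first 2 was the other way round, with 65.7 ± 2.96 CPM per kb for Usp1 and 52.6 ± 1.66 for Usp5 (SD, n = 3). Usp7, which acts on Mdm2 and p53, was next at 34.4 CPM per kb. At the other end stood Usp11 with 0.358 and Usp17la with 0.343 CPM per kb. Between the highest and the lowest group mean of a gene the median ratio was 1.83, and 17 of the 43 genes had a ratio over 2. These include Usp17la (149) and Usp11 (57.4), which passed the low-count filter only through the line in which they were high. How many of all tested genes had such a ratio was not computed.

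**Figure D1:**
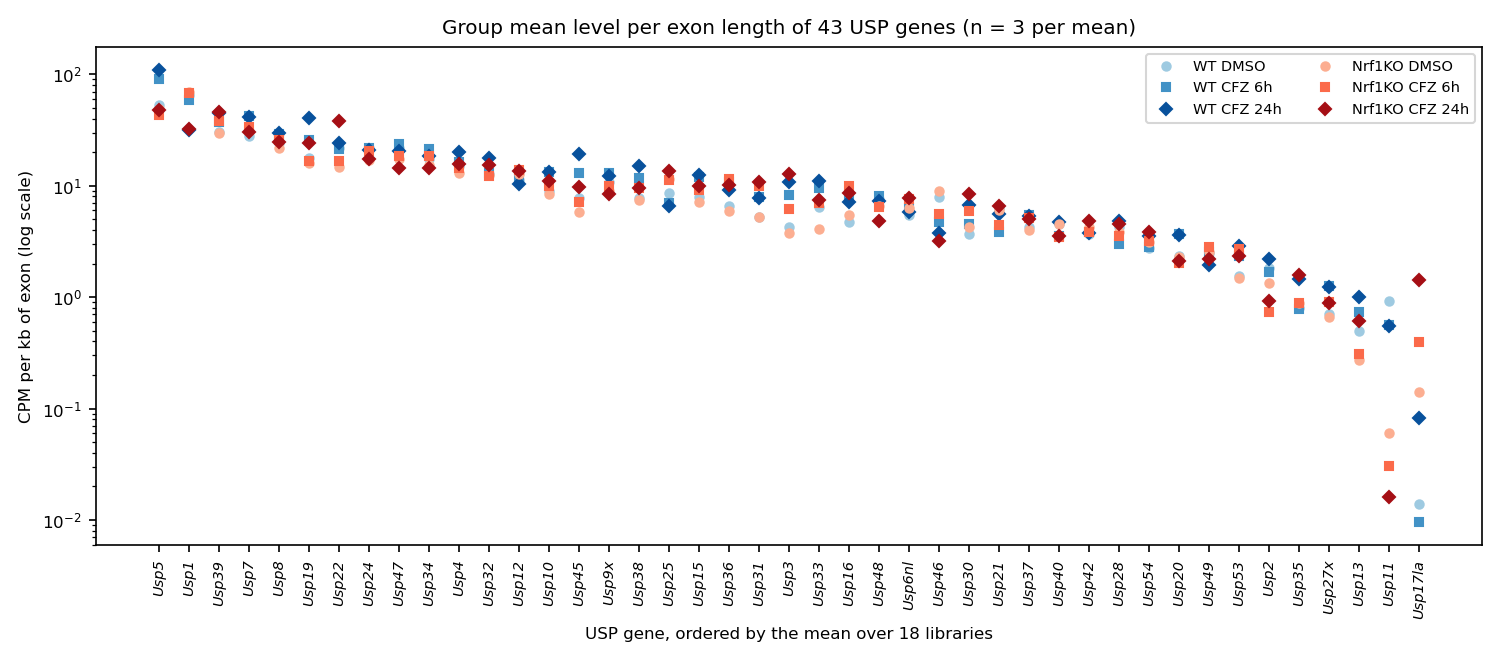
Group mean level of each of the 43 USP genes in CPM per kilobase of exon (vertical axis, log scale), in order of the mean over 18 libraries (horizontal axis), with blue for WT and red for Nrf1KO groups. Usp5, Usp1 and Usp39 lie highest, and at the right end the groups of Usp11 and Usp17la lie far apart.

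The first comparison asked how the USP genes of WT cells responded to CFZ. After 6 h, 25 of the 43 were higher and 7 lower than in DMSO, and after 24 h 30 were higher and 8 lower. Of all tested genes, 35.6% were called higher and 36.2% lower at 6 h, and 43.2% higher and 40.5% lower at 24 h. As shares of the 43 this was 58.1% higher and 16.3% lower at 6 h and 69.8% and 18.6% at 24 h. The median log2 change of the USP genes was 0.26 at 6 h, where that of all genes was -0.02, and 0.42 at 24 h, where that of all genes was 0.02. With scaling by library size alone the USP genes split into 22 higher and 10 lower at 6 h and 25 higher and 10 lower at 24 h. The 6 h and 24 h comparisons share the DMSO libraries. Without Usp11 and Usp17la the counts were 25 higher and 6 lower at 6 h and 29 higher and 7 lower at 24 h. The libraries of both groups did not overlap for 33 of the 43 USP genes at 6 h (74.2% of all tested genes) and 39 at 24 h (84.6% of all tested genes).

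**Figure D2:**
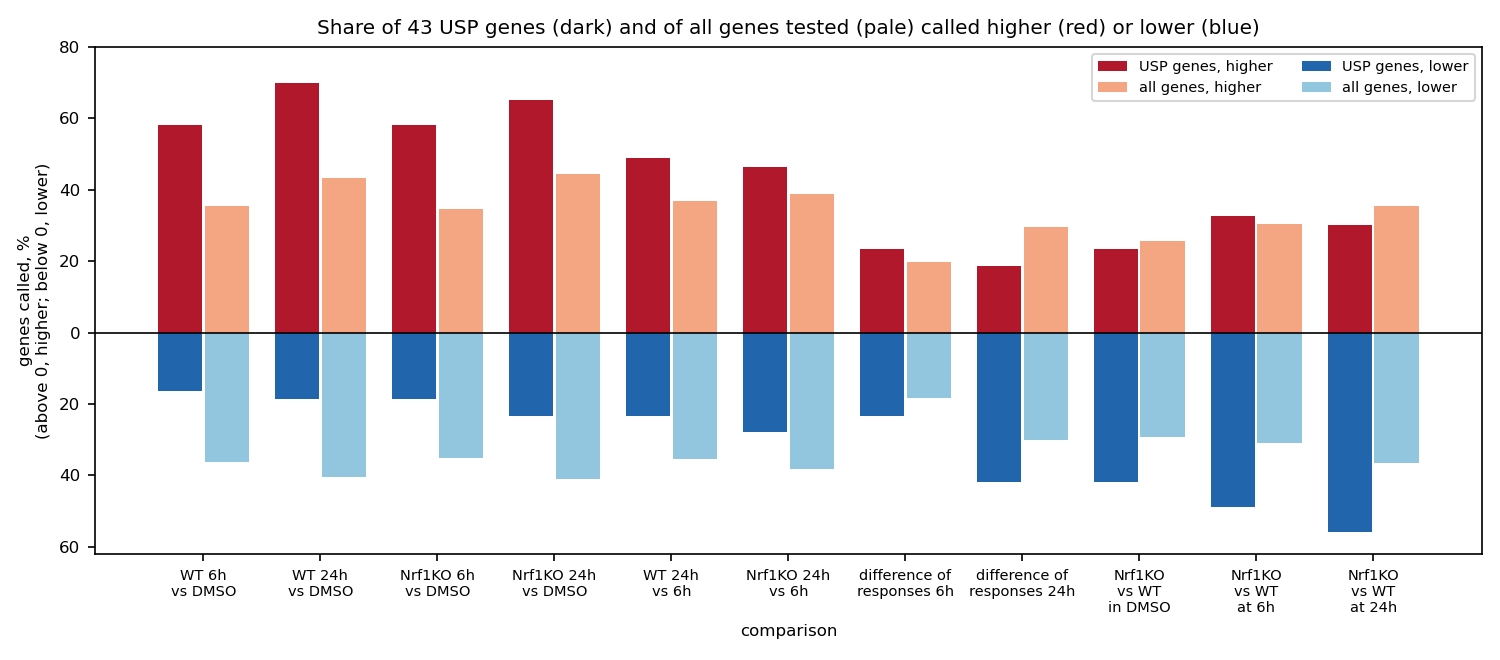
Share of the 43 USP genes (dark bars) and of all 11762 tested genes (pale bars) called higher (red, above 0) or lower (blue, below 0) in each of 11 comparisons, in percent. In the 4 comparisons of CFZ with DMSO the USP share called higher lies between 58.1% and 69.8%, above the share of all genes.

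Histone H2A is the substrate named for several of these proteases, and Usp3, one of them, had the largest rise at 6 h. Its level was 28.7, 29.8 and 28.1 CPM in WT DMSO, 56.0, 58.2 and 54.7 CPM at 6 h and 71.8, 71.5 and 76.2 CPM at 24 h. No libraries of the 3 groups overlapped, and the log2 change was 0.96 ± 0.055 (SE) at 6 h and 1.34 ± 0.052 at 24 h (adjusted p = 2.7e-16 and 3.9e-21). Usp16, which also acts on H2A, stood at 44.3, 44.4 and 43.9 CPM in WT DMSO, 73.6, 77.8 and 76.9 CPM at 6 h and 65.4, 71.5 and 66.8 CPM at 24 h. Its rise of 0.78 on the log2 scale at 6 h was followed by a fall from 6 h to 24 h (-0.16, adjusted p = 0.0026). Usp21, also an H2A protease, went the other way at 6 h, from 29.0, 29.2 and 31.2 CPM to 19.0, 17.8 and 17.7 CPM, and stood at 24.8, 29.3 and 25.2 CPM at 24 h. The DMSO and 6 h libraries of Usp21 did not overlap (log2 change -0.71 ± 0.066, adjusted p = 4.4e-11), while those of DMSO and 24 h did (-0.16 ± 0.061, adjusted p = 0.019). The call at 24 h was lost without WT DMSO replicate 3 (adjusted p = 0.077), WT CFZ 24 h replicate 1 (0.085) or WT CFZ 24 h replicate 3 (0.14).

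Usp5 rose from 236, 251 and 242 CPM in WT DMSO to 423, 419.6 and 421 CPM at 6 h and 492, 518 and 515 CPM at 24 h. All 6 CFZ libraries lay above all 3 DMSO libraries, with a log2 change of 0.79 ± 0.034 (SE) at 6 h and 1.07 ± 0.033 at 24 h (adjusted p = 1.3e-19 and 1.2e-23). Usp45, a relative of Usp16 known for acting on the DNA repair nuclease subunit ERCC1, rose from 50.8, 46.6 and 46.5 CPM to 79.0, 81.3 and 82.2 CPM at 6 h and 126, 113 and 121 CPM at 24 h. Its log2 change of 1.31 ± 0.045 at 24 h (adjusted p = 1.3e-22) was, after that of Usp3, the next largest among genes at 1 CPM or more in every library. Usp27x, a small relative of Usp22, was low, with 2.69, 2.72 and 3.71 CPM in WT DMSO, 5.38, 5.32 and 5.50 CPM at 6 h and 4.88, 5.82 and 5.21 CPM at 24 h. The CFZ libraries of Usp27x all lay above those of DMSO (log2 change 0.85 ± 0.15 at 6 h, adjusted p = 1.4e-05).

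Fewer USP genes fell, and at 24 h the largest decreases were those of Usp46 and Usp1. Both need the partner protein UAF1 (Wdr48) for activity. Usp46 fell from 58.3, 63.6 and 63.7 CPM in WT DMSO to 36.0, 38.1 and 36.6 CPM at 6 h and 29.3, 29.7 and 29.5 CPM at 24 h. No libraries of the 3 groups overlapped (log2 change -0.74 ± 0.054 at 6 h and -1.06 ± 0.056 at 24 h, adjusted p = 1.3e-13 and 1.2e-17). Usp1 moved little at 6 h, from 233, 255 and 248 CPM to 214, 219 and 224 CPM, and then stood at 120.3, 114 and 121 CPM at 24 h. Its log2 change was -0.16 ± 0.037 at 6 h and -1.05 ± 0.039 at 24 h (adjusted p = 0.00029 and 9.8e-22). Of the transcript windows of Usp1 as long as 1 read, 5.65% are shared with the gene Gm5841, so that reads of these could have been split.

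In the Nrf1KO cells the USP genes also went mainly upward, with 25 higher and 8 lower at 6 h and 28 higher and 10 lower at 24 h. Of all tested genes, 34.5% were called higher and 35.0% lower at 6 h, and 44.4% higher and 41.1% lower at 24 h. The median log2 change of the USP genes was 0.17 at 6 h and 0.28 at 24 h, and that of all genes was -0.01 and 0.03. With scaling by library size alone the split was 18 higher and 12 lower at 6 h and 21 higher and 14 lower at 24 h. The libraries of 31 USP genes at 6 h (all genes 70.6%) and 37 at 24 h (all genes 84.3%) did not overlap between CFZ and DMSO. Without Usp11 and Usp17la the counts were 24 higher and 8 lower at 6 h and 27 higher and 9 lower at 24 h. At 6 h Usp36, a nucleolar protease, rose by 0.98 ± 0.053 (SE) on the log2 scale and Usp31 by 0.93 ± 0.048. The largest decreases at 6 h among the called genes were those of Usp2 (-0.85 ± 0.15), Usp46 (-0.69 ± 0.053) and Usp21 (-0.42 ± 0.066). At 24 h the largest rises among genes at 1 CPM or more in every library were those of Usp3 (1.75 ± 0.051) and Usp22 (1.38 ± 0.038), and the largest decreases those of Usp46 (-1.47 ± 0.055) and Usp1 (-1.11 ± 0.038).

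At 6 h, 21 were higher in both lines and 4 lower in both, where 26.1% of all tested genes were higher in both and 26.2% lower in both. At 24 h, 24 were higher in both and 5 lower in both (Usp1, Usp11, Usp46, Usp47 and Usp49), where the shares of all tested genes were 35.2% and 32.8%. The Nrf1KO call of Usp11 rested on 17 counts in DMSO and 4 at 24 h, with overlapping libraries. It was lost without Nrf1KO DMSO replicate 2 (adjusted p = 0.077), Nrf1KO DMSO replicate 3 (0.11), Nrf1KO CFZ 24 h replicate 1 (0.1) or Nrf1KO CFZ 24 h replicate 3 (0.071). The WT call of Usp47 was lost without WT DMSO replicate 3 (0.082). The WT and Nrf1KO responses share no library. At 24 h, Usp2, Usp20 and Usp34 were higher in WT and lower in Nrf1KO cells. Usp5, Usp7 and Usp9x were higher in WT and not called in Nrf1KO. Usp21 and Usp25 were lower in WT and higher in Nrf1KO. The share of all tested genes with each of these pairs of calls was not computed. Several of these calls were small. The WT rises of Usp2 and Usp34 (0.28 and 0.08) were lost under both other scalings (upper-quartile and library size alone), where Usp34 changed sign, and so was that of Usp9x (adjusted p = 0.43 and 0.15). The WT rise of Usp2 was also lost with DESeq2 (0.058) and without WT DMSO replicate 1 (0.12) or WT DMSO replicate 2 (0.058). That of Usp34 was lost in 9 alternatives in all, among them DESeq2 (0.12) and the settings without WT DMSO replicate 1 (0.4), WT DMSO replicate 3 (0.088), WT CFZ 24 h replicate 1 (0.09) or WT CFZ 24 h replicate 3 (0.11). The Nrf1KO fall of Usp34 was lost without Nrf1KO DMSO replicate 1 (0.096) or Nrf1KO DMSO replicate 3 (0.056). The Nrf1KO rise of Usp21 (0.12) was lost under each setting that left out a library of the compared groups. Usp49 shares 51.2% of its exonic bases with Gm20517 on the same strand, and its counts may include that gene's.

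**Figure D3:**
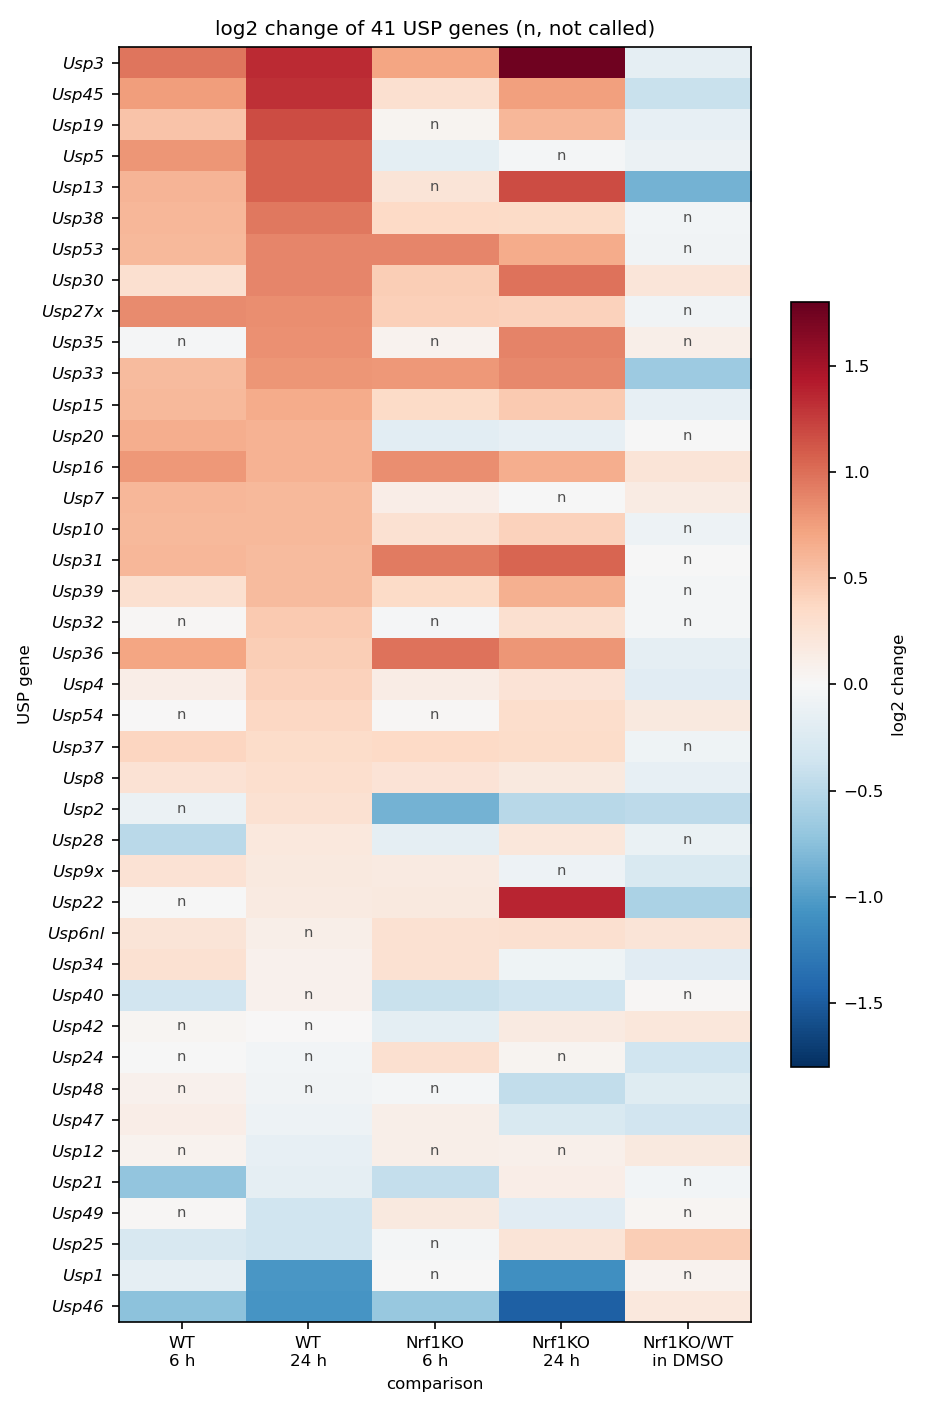
Log2 change of 41 USP genes (rows, in order of the WT change at 24 h) in 5 comparisons (columns), with red for higher, blue for lower and the letter n for not called. Usp5, Usp20 and Usp7 are red in both WT columns and pale in the Nrf1KO columns, and Usp22 is pale in WT and dark red in Nrf1KO at 24 h.

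Whether the response differed between the lines was tested as the interaction of line and CFZ, the log2 change in Nrf1KO minus that in WT. At 6 h the difference was called for 20 of the 43 USP genes, 10 higher and 10 lower in Nrf1KO, where 19.8% and 18.4% of all genes were called. Without WT CFZ 6 h replicate 3, 6 were higher in place of 10. At 24 h it was called for 26, 8 higher and 18 lower, where 29.7% of all genes were called higher and 30.0% lower. The median difference of the USP genes was -0.005 at 6 h and -0.06 at 24 h, and that of all genes was 0.02 and 0.01. Under scaling by library size alone the 24 h split was 6 higher and 20 lower.

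Usp5 had the lowest interaction at both times. In Nrf1KO cells it stood at 220.1, 231 and 224 CPM in DMSO, 195, 196 and 206 CPM at 6 h and 216, 218 and 223 CPM at 24 h. The Nrf1KO libraries at 6 h lay below those in DMSO and those at 24 h overlapped them, where in WT cells every CFZ library was above every DMSO library. The difference between the lines was -0.97 ± 0.049 (SE) at 6 h and -1.11 ± 0.048 at 24 h (adjusted p = 9.3e-17 and 8.5e-19).

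Usp20, which acts on hypoxia-inducible factor and on membrane receptors that are being recycled, stood at 20.6, 20.6 and 22.1 CPM in WT DMSO, 32.2, 32.3 and 35.2 CPM at 6 h and 29.9, 33.5 and 33.5 CPM at 24 h. In Nrf1KO cells it stood at 20.6, 20.2 and 21.5 CPM in DMSO, 18.9, 18.1 and 17.4 CPM at 6 h and 19.5, 19.5 and 17.7 CPM at 24 h. The WT CFZ libraries were all above the WT DMSO libraries, and the Nrf1KO CFZ libraries were all below the Nrf1KO DMSO libraries. The log2 change was 0.66 ± 0.061 in WT and -0.19 ± 0.07 in Nrf1KO at 6 h, with an interaction of -0.85 ± 0.093 (adjusted p = 7.1e-09). The fall in Nrf1KO at 6 h (adjusted p = 0.016) was not called without Nrf1KO DMSO replicate 3 (0.075) or Nrf1KO CFZ 6 h replicate 3 (0.051). At 24 h the interaction was -0.77 ± 0.089 (adjusted p = 6.9e-09). The small fall in Nrf1KO at 24 h (-0.14, adjusted p = 0.042) did not pass with DESeq2 (adjusted p = 0.067) or without Nrf1KO DMSO replicate 1 (0.053), Nrf1KO DMSO replicate 3 (0.16) or Nrf1KO CFZ 24 h replicate 3 (0.087).

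Usp2, a short-lived protease known for rhythmic expression, was less abundant, with 8.16, 8.09 and 10.1 CPM in WT DMSO, 7.13, 8.59 and 8.59 CPM at 6 h and 10.5, 10.6 and 10.7 CPM at 24 h. In Nrf1KO cells it stood at 6.11, 7.38 and 5.71 CPM in DMSO, 3.45, 3.17 and 4.08 CPM at 6 h and 4.72, 4.33 and 4.38 CPM at 24 h. The Nrf1KO libraries after CFZ lay below all other libraries, and the interaction was -0.74 ± 0.19 at 6 h and -0.78 ± 0.16 at 24 h (adjusted p = 0.0018 and 0.00014).

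A group of further USP genes, named here after their values were seen, rose in both lines or in WT alone with a lower response in Nrf1KO. Usp7 stood at 212, 220.1 and 216 CPM in WT DMSO and 326, 324 and 322 CPM in WT CFZ 24 h, and at 240.3, 237 and 241 and 243, 241 and 230.3 CPM in the same Nrf1KO groups. The WT groups of Usp7 did not overlap and the Nrf1KO groups did (interaction -0.60 ± 0.045, adjusted p = 6.3e-13). Usp19, which has a form anchored in the endoplasmic reticulum, stood at 127, 128 and 121 CPM in WT DMSO and 281, 284 and 282 CPM in WT CFZ 24 h, and at 119.8, 115 and 106 and 179.5, 166 and 167 CPM in Nrf1KO. Its level rose in both lines, less in Nrf1KO (interaction -0.57 ± 0.055, adjusted p = 1.5e-10). For Usp45 the Nrf1KO libraries stood at 34.6, 38 and 36.6 CPM in DMSO, 44.8, 43.6 and 45.4 CPM at 6 h and 62.9, 60.4 and 59.7 CPM at 24 h, with an interaction of -0.57 ± 0.067 at 24 h (adjusted p = 1.2e-08). Usp38 had an interaction of -0.60 ± 0.074 at 24 h (adjusted p = 2.7e-08), but 20.5% of its exonic bases lie opposite another gene, and the use of strand in the counting is not given in the sources used here.

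The genes with a higher response in the Nrf1KO cells were led at 24 h by Usp22, the protease of the SAGA transcription coactivator. It stood at 107, 103 and 107 CPM in WT DMSO, 107, 105 and 104 CPM at 6 h and 121, 115 and 119.6 CPM at 24 h. In Nrf1KO cells it stood at 72.8, 71.3 and 69.9 CPM in DMSO, 82.7, 76.6 and 81.9 CPM at 6 h and 194, 184 and 178 CPM at 24 h. The Nrf1KO line thus had the lowest levels in DMSO and the highest at 24 h, without overlap with any other group. The log2 change at 24 h was 0.17 ± 0.038 in WT and 1.38 ± 0.038 in Nrf1KO, and the interaction was 1.21 ± 0.054 (adjusted p = 1.8e-18). With upper-quartile scaling the WT change at 24 h was 0.03 and not called (adjusted p = 0.5). At 6 h the interaction was 0.18 ± 0.058 (adjusted p = 0.013). That call was lost without WT DMSO replicate 1 (adjusted p = 0.073), WT CFZ 6 h replicate 2 (0.059), WT CFZ 6 h replicate 3 (0.075) or Nrf1KO CFZ 6 h replicate 1 (0.055).

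Usp25, which acts in the endoplasmic reticulum and in immune signalling, stood at 44.4, 42.9 and 46.0 CPM in WT DMSO, 34.8, 36.5 and 38.1 CPM at 6 h and 34.8, 34.7 and 34.1 CPM at 24 h. In Nrf1KO cells it stood at 59.9, 60.8 and 60.3 CPM in DMSO, 60.8, 56.9 and 59.4 CPM at 6 h and 70.8, 75.2 and 66.8 CPM at 24 h. It fell in WT at both times and rose in Nrf1KO at 24 h (interaction 0.60 ± 0.068, adjusted p = 5e-09). With library size alone the rise in Nrf1KO was not called.

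Usp31 stood at 53.5, 55.3 and 53.0 CPM in WT DMSO, 79.0, 81.3 and 84.3 CPM at 6 h and 82.2, 80.0 and 78.5 CPM at 24 h. In Nrf1KO cells it stood at 52.1, 53.7 and 54.9 CPM in DMSO, 109, 101 and 95.3 CPM at 6 h and 119, 109 and 106 CPM at 24 h. The lines overlapped in DMSO, and every Nrf1KO CFZ library was above every WT CFZ library (interaction 0.34 ± 0.069 at 6 h and 0.48 ± 0.068 at 24 h, adjusted p = 0.00022 and 3.1e-07).

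Usp28, a relative of Usp25 that acts on Myc, and Usp24, one of the largest of the family, completed the 3 highest interactions at 6 h. Usp28 fell from 23.4, 25.5 and 25.5 CPM in WT DMSO to 17.97, 19.3 and 15.6 CPM at 6 h and stood at 27.6, 27.8 and 28.8 CPM at 24 h. In Nrf1KO it stood at 21.1, 23.0 and 23.8 CPM in DMSO, 20.1, 20.2 and 21.0 CPM at 6 h and 26.8, 25.6 and 26.1 CPM at 24 h. Its libraries lay below those of DMSO at 6 h and above them at 24 h in both lines, with an interaction of 0.32 ± 0.099 at 6 h (adjusted p = 0.0097). Without WT CFZ 6 h replicate 3 this difference was 0.22 and not called (adjusted p = 0.095, range over its alternatives 0.0042 to 0.095). Usp24 stood at 258, 282 and 262 CPM in WT DMSO, 275, 258 and 265 CPM at 6 h and 269, 254 and 249 CPM at 24 h. In Nrf1KO it stood at 218, 206 and 202 CPM in DMSO, 264, 255 and 244 CPM at 6 h and 222, 222 and 204 CPM at 24 h. The WT groups of Usp24 overlapped and the Nrf1KO libraries at 6 h were above those in DMSO (interaction 0.29 ± 0.06, adjusted p = 0.00017).

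**Figure D4:**
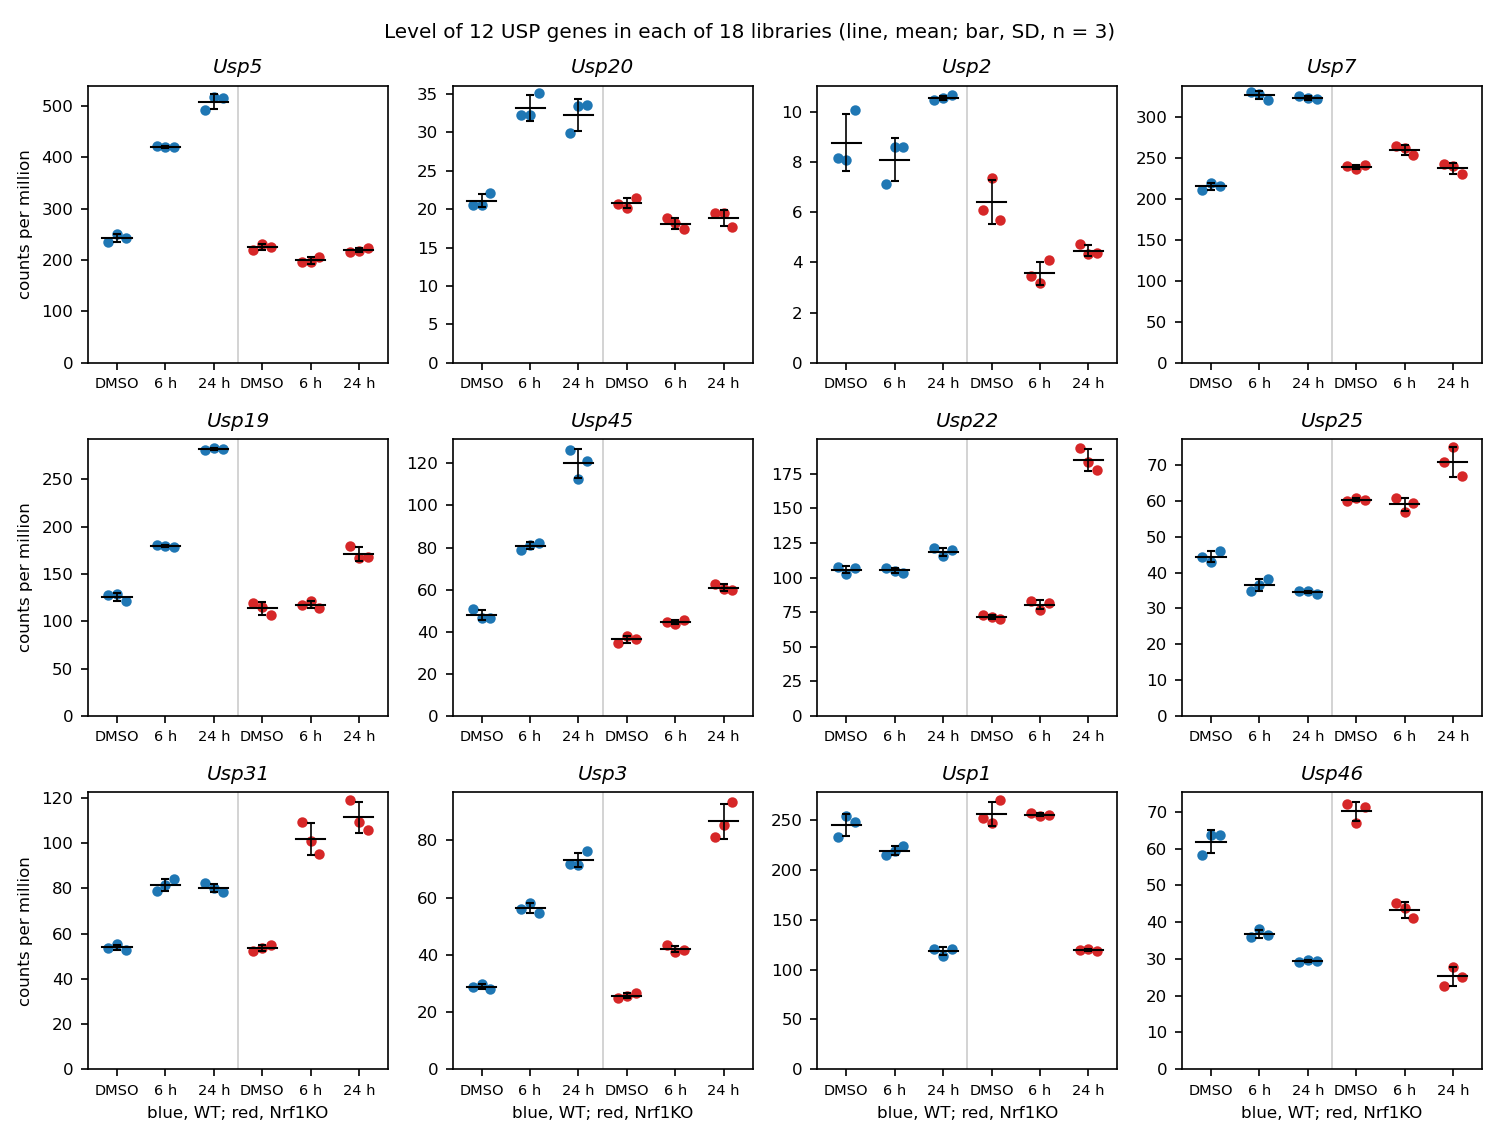
Level in CPM (vertical axes, from 0) of 12 USP genes in each of the 18 libraries, by group (horizontal axes), with WT in blue, Nrf1KO in red, the group mean as a line and the SD (n = 3) as a bar. Usp5, Usp20 and Usp7 are above DMSO after CFZ in WT and near DMSO in Nrf1KO, and Usp22 is highest in Nrf1KO CFZ 24 h.

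**Figure D5:**
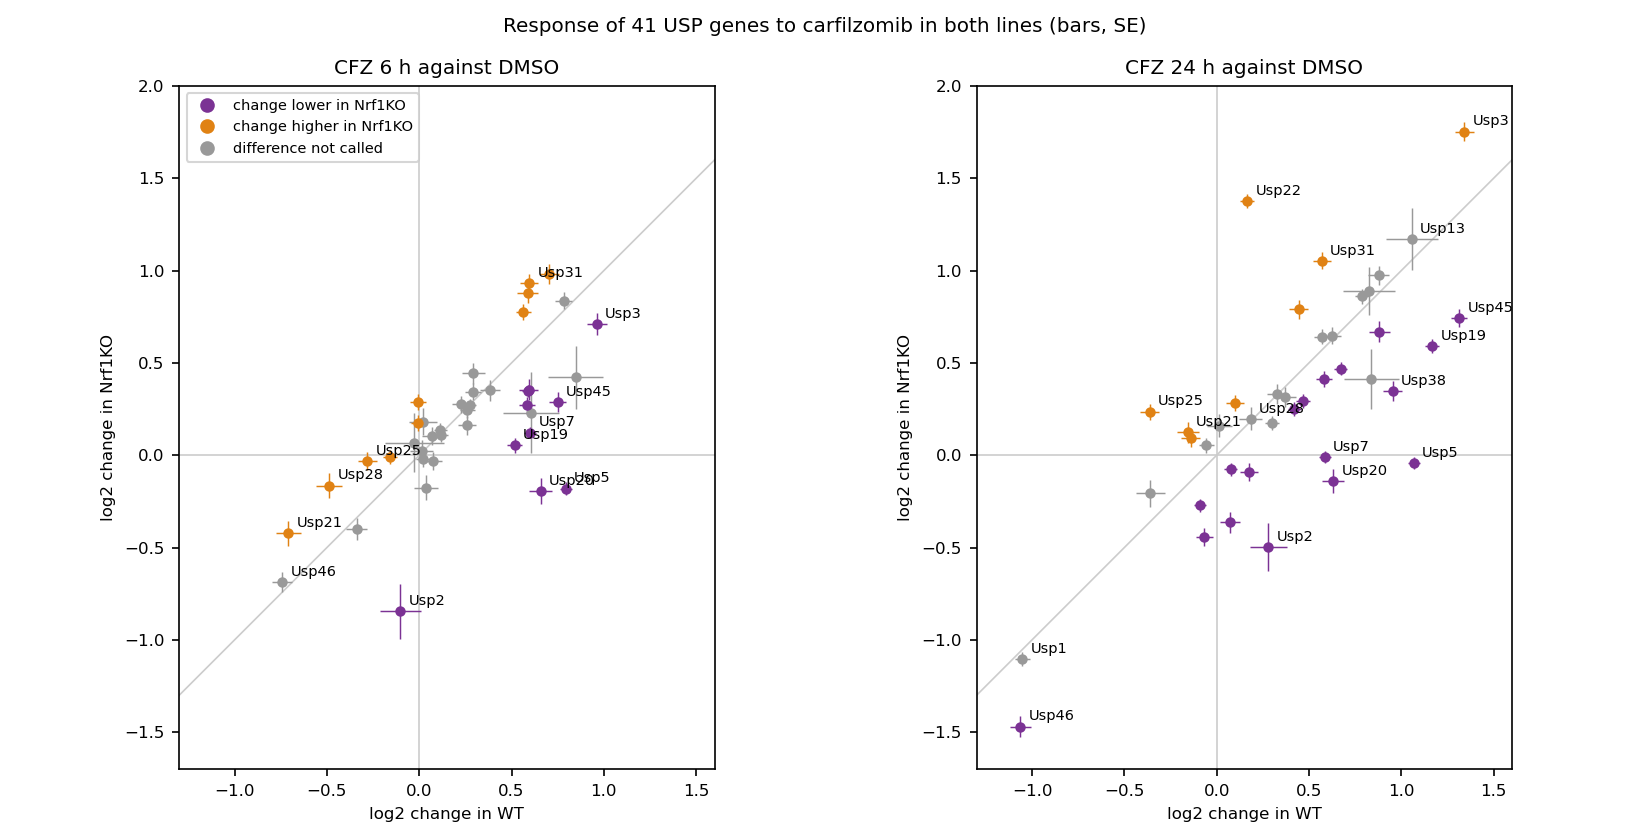
Log2 change after CFZ in Nrf1KO (vertical axis) against that in WT (horizontal axis) for 41 USP genes at 6 h (left) and 24 h (right), with SE bars, a diagonal for equal change and colour for the interaction call. Usp5, Usp20 and Usp2 lie far below the diagonal and Usp22 far above it at 24 h.

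Without CFZ, more of the USP genes were lower than higher in the Nrf1KO line. In DMSO 10 of the 43 were higher and 18 lower in Nrf1KO than in WT, where 25.7% of all genes were called higher and 29.1% lower. At 6 h of CFZ 14 were higher and 21 lower (all genes 30.5% and 30.8%), and at 24 h 13 were higher and 24 lower (all genes 35.6% and 36.4%). The median difference of the USP genes was -0.07 in DMSO, -0.11 at 6 h and -0.25 at 24 h, where that of all genes was -0.02, 0.00 and 0.00. The lines did not overlap for 29 USP genes in DMSO (all genes 59.8%), 34 at 6 h (65.4%) and 36 at 24 h (72.6%). The counts above include Usp11 and Usp17la, which passed the low-count filter only through the line in which they were high. Without them the counts were 9 higher and 17 lower in DMSO, 13 and 20 at 6 h and 12 and 23 at 24 h. With scaling by library size alone the split in DMSO was 11 higher and 15 lower, and at 6 h 15 higher and 21 lower.

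Usp11 and Usp17la were near the limit of detection in 1 of the lines. Since each passed the low-count filter only through the other line, their counts are given as a description, with no test between the lines. Usp11, a relative of Usp4 and Usp15 linked to DNA repair, had 94, 81 and 55 counts in WT DMSO and 2, 6 and 9 counts in Nrf1KO DMSO. At 6 h it had 38, 37 and 32 counts in WT and 0, 1 and 3 in Nrf1KO, and at 24 h 24, 37 and 51 in WT and 0, 3 and 1 in Nrf1KO. Within WT, over the 3 libraries together, the level in DMSO was 1.83 times that at 6 h (95% exact counting interval 1.45 to 2.32) and 1.82 times that at 24 h (1.45 to 2.30). Usp17la, a member of a cluster of related, cytokine-inducible genes, had 1, 1 and 0 counts in WT DMSO, 1, 0 and 0 at 6 h and 4, 1 and 3 at 24 h. In Nrf1KO it had 5, 7 and 9 counts in DMSO, 12, 12 and 11 at 6 h and 54, 62 and 64 at 24 h. In WT the 24 h level over that in DMSO was 4.51 (0.9 to 43.6), an interval that includes 1, although the fitted difference passed in the edgeR test (adjusted p = 0.031). With DESeq2 it did not pass (adjusted p = 0.061), and neither did it without WT DMSO replicate 1 (0.054), WT DMSO replicate 3 (0.099), WT CFZ 24 h replicate 1 (0.19) or WT CFZ 24 h replicate 3 (0.06). These ratios were scaled by the library totals alone, without TMM, and their intervals cover counting error only. Of the windows of Usp17la as long as 1 read, 2.25% are also in Usp17lb, and reads of these could have been split.

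Among the genes with more counts, Usp13 and Usp33 had the lowest called differences in DMSO, and Usp25 and Usp16 the highest. Usp13, the relative of Usp5, stood at 2.79, 3.72 and 4.71 CPM in WT DMSO, 5.76, 5.75 and 5.20 CPM at 6 h and 7.83, 7.13 and 8.0 CPM at 24 h. In Nrf1KO it stood at 1.97, 2.42 and 1.81 CPM in DMSO, 2.495, 2.47 and 2.04 CPM at 6 h and 5.14, 3.94 and 4.76 CPM at 24 h. Its DMSO libraries did not overlap between the lines (log2 difference -0.85 ± 0.18, adjusted p = 0.00014), and it rose in both lines at 24 h of CFZ (1.06 ± 0.14 and 1.17 ± 0.17). Usp33, the relative of Usp20, stood at 62.4, 62.0 and 61.6 CPM in WT DMSO, 92.1, 89.6 and 93.5 CPM at 6 h and 109, 105 and 108 CPM at 24 h. In Nrf1KO it stood at 38.4, 39.9 and 40.1 CPM in DMSO, 68.8, 65.7 and 69.1 CPM at 6 h and 69.2, 71.6 and 74.7 CPM at 24 h. The Nrf1KO line was lower in each treatment, by -0.65 ± 0.042 in DMSO (adjusted p = 2.5e-14). Of the exonic bases of Usp33, 24.4% lie opposite another gene. Higher in Nrf1KO in DMSO were Usp25 (0.44 ± 0.046, adjusted p = 1e-09) and Usp16, at 48.6, 51.6 and 54.7 CPM in DMSO, 92.01, 92.1 and 94.8 CPM at 6 h and 80.5, 79.2 and 84.7 CPM at 24 h (0.23 ± 0.048 in DMSO, adjusted p = 0.00012). In Nrf1KO, Usp16 rose at 6 h and fell from 6 h to 24 h as in WT, and its interaction was not called at either time (0.06 ± 0.066 and 0.03 ± 0.065).

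After CFZ the differences between the lines included the responses above. Usp11 and Usp17la are left aside here. At 6 h Usp13 (-1.23 ± 0.19) and Usp2 (-1.21 ± 0.15) were the lowest in Nrf1KO against WT. Usp25 (0.69 ± 0.053) and Usp30, a protease of the mitochondrial outer membrane (0.37 ± 0.06), were the highest. At 24 h Usp2 (-1.24 ± 0.12) and Usp5 (-1.22 ± 0.034) were the lowest. Usp25 (1.04 ± 0.049) and Usp22 (0.64 ± 0.037) were the highest.

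Between 6 h and 24 h of CFZ the USP genes went on moving. In WT 21 were higher and 10 lower at 24 h than at 6 h (all genes 36.9% and 35.4%), and in Nrf1KO 20 were higher and 12 lower (all genes 38.7% and 38.3%). Libraries of 32 USP genes in WT (all genes 75.3%) and 34 in Nrf1KO (all genes 76.7%) did not overlap between the 2 times. With Usp11 and Usp17la left aside, Usp35 (0.85 ± 0.15) and Usp28 (0.67 ± 0.07) had the largest rises in WT from 6 h to 24 h. In the same line Usp1 (-0.89 ± 0.04), Usp49 (-0.38 ± 0.082) and Usp46 (-0.32 ± 0.063) fell. In Nrf1KO, again without them, Usp22 (1.20 ± 0.04) and Usp3 (1.04 ± 0.051) rose most. Usp1 (-1.10 ± 0.039), Usp46 (-0.78 ± 0.063) and Usp48 (-0.41 ± 0.052) fell in Nrf1KO. Usp1 in Nrf1KO stood at 252, 247 and 270.0 CPM in DMSO, 257, 254 and 255 CPM at 6 h and 119.5, 120.2 and 118 CPM at 24 h. Its DMSO and 6 h libraries overlapped, and all of them were over those at 24 h. Usp39 rose in both lines, from 72.1, 76.1 and 73.5 CPM in WT DMSO to 88.0, 88.9 and 94.0 at 6 h and 109.9, 106 and 113 at 24 h. Its Nrf1KO libraries stood at 72.0, 69.9 and 74.6 CPM in DMSO, 91.4, 90.6 and 94.2 at 6 h and 106, 112 and 119.6 at 24 h. The interaction of Usp39 was 0.06 ± 0.062 at 6 h and 0.07 ± 0.06 at 24 h, and neither was called.

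Close relatives and proteases with a shared partner were compared by their changes at 24 h. Of the 3 that bind UAF1, Usp46 and Usp1 fell in both lines, while Usp12 changed by -0.14 ± 0.053 in WT (adjusted p = 0.015) and 0.09 ± 0.048 in Nrf1KO (adjusted p = 0.071, not called). The WT change of Usp12 was not called without WT CFZ 24 h replicate 2 (adjusted p = 0.053). Usp46 in Nrf1KO stood at 72.0, 67.1 and 71.3 CPM in DMSO, 45.1, 43.9 and 41.01 CPM at 6 h and 22.8, 27.7 and 25.1 CPM at 24 h, and fell further than in WT at 24 h (interaction -0.41 ± 0.08, adjusted p = 6.5e-05). Usp5 and Usp13 both rose in WT (1.07 and 1.06). In Nrf1KO Usp13 rose by 1.17 and Usp5 was not called (-0.04). Usp20 and Usp33 rose in WT (0.63 and 0.79), and in Nrf1KO Usp33 rose (0.86) while Usp20 was slightly lower (-0.14).

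Usp22 and its relative Usp27x both rose in Nrf1KO at 24 h (1.38 and 0.41). The Nrf1KO rise of Usp27x was not called with upper-quartile scaling (adjusted p = 0.076) or library size alone (0.18), nor without Nrf1KO DMSO replicate 2 (adjusted p = 0.092), Nrf1KO CFZ 24 h replicate 2 (0.055) or Nrf1KO CFZ 24 h replicate 3 (0.13). In WT the rise of Usp27x was 0.84 and that of Usp22 0.17. Their other relative, Usp51, had no count. Usp4 and Usp15, proteases that regulate signalling by transforming growth factor β, rose in both lines (Usp4 0.42 in WT and 0.25 in Nrf1KO, Usp15 0.67 and 0.47). The Nrf1KO rise of Usp4 was 0.07 and not called with library size alone (adjusted p = 0.085). Both rises were smaller in Nrf1KO (interaction -0.17 and -0.20, adjusted p = 0.0051 and 0.00052). Usp25 and Usp28 parted in WT, with -0.36 for Usp25 and 0.18 for Usp28, and both rose in Nrf1KO (0.24 and 0.20). Neither rise of Usp28 was called with upper-quartile scaling (0.05 in WT and 0.09 in Nrf1KO, adjusted p = 0.48 and 0.18) or library size alone (0.08 and 0.01, adjusted p = 0.25 and 0.84). The WT change of Usp28 was also lost with no expression filter (adjusted p = 0.083) and without WT DMSO replicate 1 (0.15). Usp16 and Usp45 rose in both lines, Usp45 more in WT.

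Usp53 and Usp54 rose in both lines, Usp53 by 0.88 in WT and 0.67 in Nrf1KO and Usp54 by 0.37 and 0.32. Usp36 rose more in Nrf1KO (0.79) than in WT (0.44, interaction 0.35 ± 0.075, adjusted p = 0.00018), and its relative Usp42 was not called in WT (0.01) and changed by 0.16 in Nrf1KO. That call of Usp42 was lost with DESeq2 (adjusted p = 0.059), upper-quartile scaling (0.41), library size alone (0.73), no expression filter (0.11) and the compared groups only (0.095). It was also lost without Nrf1KO DMSO replicate 1 (0.056), Nrf1KO CFZ 24 h replicate 1 (0.21) or Nrf1KO CFZ 24 h replicate 2 (0.18). Usp35 and Usp38 rose in WT (0.82 and 0.95) and in Nrf1KO (0.89 and 0.35). Of the USP proteins placed at membranes, Usp19 rose in both lines, Usp30 rose by 0.88 in WT and 0.97 in Nrf1KO, and Usp8, which acts at endosomes, rose by 0.30 and 0.17. The Nrf1KO rise of Usp8 was not called with upper-quartile scaling (adjusted p = 0.12) and had the opposite sign with library size alone (-0.009, adjusted p = 0.83). Usp2 and Usp21 parted in both lines at 24 h, with 0.28 and -0.16 in WT and -0.50 and 0.12 in Nrf1KO. Under library size alone, Usp21 in Nrf1KO had the opposite sign and was not called.

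Nrf1 binds antioxidant response elements, whose core is written TGACNNNGC, so the promoter windows of the USP genes were searched for these letters on both strands. RefSeq windows on GRCm38.p6, from 250 bases before to 50 bases after a start, were matched for 35 of the 43 genes (36 windows). The 8 not matched were Usp1, Usp5, Usp9x, Usp22, Usp33, Usp39, Usp42 and Usp53. The core was found in 9 of the 36 windows (25.0%) and in 12.4% of all 32851 windows. The 9 were those of Usp2, Usp10, Usp13, Usp17la, Usp20, Usp25, Usp32, Usp34 and Usp36. They include 2 of the genes with the lowest interactions, Usp20 and Usp2, and 1 of those with the highest, Usp25. The windows of Usp7, Usp19, Usp38 and Usp45 hold no match. That of Usp7, chr16:8738293-8738592 (minus strand), lies inside the GENCODE gene, chr16:8689595-8792308. That of Usp45, chr4:21776020-21776319 (plus strand), lies inside its gene, chr4:21767156-21837872. For these 2 genes the first GENCODE start was therefore not covered by the window searched. The windows of Usp20, Usp2 and Usp25 are shown because these genes responded differently in the lines, and that of Usp19 is shown beside them as one without a match. Capitals mark the core, and all are 300 bases from 5′ to 3′ in the direction of the gene. The window of Usp20 is chr2:30982029-30982328 (plus strand), that of Usp2 chr9:44084670-44084969 (plus strand), that of Usp25 chr16:77013819-77014118 (plus strand) and that of Usp19 chr9:108490426-108490725 (plus strand). The Usp2 window lies inside the GENCODE gene, chr9:44067021-44095627, at a start downstream of the first one. The Usp25 window likewise lies inside its gene, chr16:77013706-77116780.
Usp20: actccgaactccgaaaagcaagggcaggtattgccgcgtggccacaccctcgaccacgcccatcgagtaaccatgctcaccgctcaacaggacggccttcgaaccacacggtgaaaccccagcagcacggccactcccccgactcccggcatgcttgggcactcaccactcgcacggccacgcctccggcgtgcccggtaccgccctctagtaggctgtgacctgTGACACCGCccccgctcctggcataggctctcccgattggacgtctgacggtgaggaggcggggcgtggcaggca
Usp2: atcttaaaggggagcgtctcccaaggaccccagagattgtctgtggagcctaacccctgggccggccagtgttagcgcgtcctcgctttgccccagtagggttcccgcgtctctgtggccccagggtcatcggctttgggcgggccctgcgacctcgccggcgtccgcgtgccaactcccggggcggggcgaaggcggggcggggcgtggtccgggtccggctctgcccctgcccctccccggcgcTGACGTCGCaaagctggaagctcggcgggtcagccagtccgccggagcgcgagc
Usp25: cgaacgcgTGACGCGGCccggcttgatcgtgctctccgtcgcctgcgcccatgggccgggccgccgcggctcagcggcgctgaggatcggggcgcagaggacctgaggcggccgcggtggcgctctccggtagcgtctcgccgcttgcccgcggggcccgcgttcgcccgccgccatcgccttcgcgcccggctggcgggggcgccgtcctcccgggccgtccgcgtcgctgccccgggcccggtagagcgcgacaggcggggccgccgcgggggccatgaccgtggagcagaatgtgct
Usp19: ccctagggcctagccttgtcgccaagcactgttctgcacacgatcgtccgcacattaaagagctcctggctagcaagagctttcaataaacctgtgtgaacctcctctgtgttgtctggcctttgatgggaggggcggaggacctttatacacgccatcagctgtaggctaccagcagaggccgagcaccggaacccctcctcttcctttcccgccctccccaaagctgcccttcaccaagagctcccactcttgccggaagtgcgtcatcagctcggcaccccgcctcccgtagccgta

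Of 4 other motifs, searched in the same windows on both strands, TGANGNAA (the C/EBP-ATF response element core) was in 4 USP windows (11.1%, all windows 16.5%). CACGTG (the E-box) was in 5 (13.9%, all windows 7.15%), and CCGGAAG (an ETS site) in 8 (22.2%, all windows 8.86%). GAANNTTC (a pair of inverted heat shock element units) was in 0 of the 36 (all windows 7.86%). No motif overlap was removed, and a match is only a run of letters in the window.

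The deubiquitinases of other families and the partner proteins of USPs were taken as lists beside the USP genes. Whether each product listed with the other deubiquitinases, such as that of Cops5, cuts ubiquitin was not checked. Of 34 tested genes for other deubiquitinases, 23 (67.6%) were higher and 7 (20.6%) lower in WT at 24 h, where 43.2% and 40.5% of all genes were, with a median log2 change of 0.39 (all genes 0.02). The interaction at 24 h was called higher for 7 (20.6%) and lower for 13 (38.2%), beside 29.7% and 30.0% of all genes. In WT at 24 h Yod1 (Cdc48-associated OTU protease, 1.36 ± 0.078) and Psmd14, the deubiquitinase of the proteasome lid (1.26 ± 0.043), rose most of the list. Otub2 (-1.71 ± 0.1), Mindy2, listed as Fam63b (-1.06 ± 0.056), and Mpnd (-1.05 ± 0.06) fell most. In the interaction at 24 h Otub2 (0.73 ± 0.14) and Otud4 (0.52 ± 0.057) were higher and Josd1 (-1.04 ± 0.056), Cops5 (-0.90 ± 0.065) and Cyld (-0.86 ± 0.061) lower.

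Of 12 partner genes, 9 were higher and 3 lower in WT at 24 h, and in the interaction at 24 h 5 were higher and 3 lower. The shares of all genes are those given for the other deubiquitinases. Wdr48, the partner of Usp1, Usp12 and Usp46, rose by 0.49 ± 0.036 in WT and 0.24 ± 0.036 in Nrf1KO, while Usp1 and Usp46 fell in both. Atxn7, which anchors the Usp22 module in SAGA, rose by 1.29 ± 0.056 in WT and 0.76 ± 0.059 in Nrf1KO (interaction -0.53 ± 0.082, adjusted p = 2e-06), while Usp22 rose more in Nrf1KO. Its relative Atxn7l2 rose more in Nrf1KO (interaction 0.84 ± 0.14, adjusted p = 6.9e-06). The other module subunits Atxn7l3 and Eny2 fell in WT (-0.23 and -0.50). In Nrf1KO, Atxn7l3 was not called (0.04) and Eny2 fell by less (-0.24, interaction 0.26 ± 0.065, adjusted p = 0.001).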

How the data were processed

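RNA from 18 cultures of NIH-3T3 cells was sequenced by the authors with a stranded mRNA kit and paired reads, and aligned with STAR in the RNA Express workflow, which also runs DESeq2. The authors deposited 1 table of raw counts, whole reads per gene symbol without normalization. Versions, genome build, annotation and use of strand in counting are not given in the sources used here. Columns were matched to samples by the column name in each sample's description. Groups came from the labels. The series is labelled as 3 biological replicates, and the p-values measure the spread between these.

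The counts were filtered with filterByExpr (minimum count 10, minimum total count 15), scaled by TMM and fitted in edgeR 4.0.16 (R 4.3.3), with the 6 groups of 18 libraries together in 1 quasi-likelihood model. There were 11 comparisons, each with Benjamini-Hochberg adjustment over 11762 genes and a threshold of 0.05. The SE was taken from the log2 change and its F statistic (change over the root of F). Code was tested on simulated data. No pair of replicates agreed within sampling noise (lowest chi-square per degree of freedom 1.438). Precision follows from total counts of 8333148 to 23917081 per library. Counting intervals are exact conditional binomial intervals and cover counting error only.

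The USP genes and the lists of relatives, other deubiquitinases and partners were chosen with earlier results of these data known. Genes given in every library are the 3 with the highest and the 3 with the lowest called change in WT at each time, in the interaction at each time and between lines in DMSO, and the 3 with the highest level per exon length. Of each other comparison, the 3 highest and 3 lowest are given with their change, as are the close relatives, except Usp11 and Usp17la, which are given by their counts. Usp7, Usp19 and Usp38 were added after their values were seen. So were Usp4, Usp8, Usp34, Usp48 and Usp9x where lists of 5 or fewer genes or single roles named them. Exon lengths, positions and overlaps are from GENCODE M21 on GRCm38 by symbol, and promoter windows from RefSeq on GRCm38.p6.

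Alternatives were DESeq2 1.42.0, upper-quartile scaling, library size alone, no expression filter, a mean count of at least 10, the replicate number as a block, the compared groups only, each library left out in turn, and a minimum fold of 2.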

Additional observations from a re-analysis of the deposited data

Results flagged for a closer look

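The response to CFZ differed between the lines by the interaction test for some of the USP genes, given as the log2 change in Nrf1KO minus that in WT. At 6 h it was higher for 10 and lower for 10 of the 43 genes (23.3% each), where 19.8% and 18.4% of all tested genes were called. At 24 h it was higher for 8 and lower for 18, where 29.7% and 30.0% of all genes were called. At 6 h the 3 highest differences were those of Usp31 (0.335), Usp28 (0.323) and Usp24 (0.295), and the 3 lowest were those of Usp5 (-0.975), Usp20 (-0.852) and Usp2 (-0.744). At 24 h the 3 highest were those of Usp22 (1.21), Usp25 (0.60) and Usp31 (0.48), and the 3 lowest those of Usp5 (-1.11), Usp2 (-0.78) and Usp20 (-0.77). These 12 differences passed an adjusted p-value of 0.05 in edgeR's quasi-likelihood test.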

How the results depend on the processing

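Of 332 alternative values of the 22 counts of USP genes, 309 were within 1.5 times the reported count. With a minimum fold of 2, which also lowered the counts of all genes, fewer USP genes were called. The counts higher and lower were 0 and 0 in WT at 6 h (all genes 468 and 665 of 11762) and 6 and 2 in WT at 24 h (1234 and 1705). In Nrf1KO they were 1 and 0 at 6 h (all genes 388 and 501) and 5 and 3 at 24 h (1347 and 1790). From 6 h to 24 h they were 1 and 0 in WT (all genes 607 and 814) and 3 and 1 in Nrf1KO (772 and 1084). In the interaction they were 0 and 0 at 6 h (all genes 142 and 185) and 1 and 1 at 24 h (479 and 533). Between the lines they were 1 and 1 in DMSO (all genes 376 and 208), 1 and 4 at 6 h (507 and 353) and 2 and 3 at 24 h (789 and 651). Each of these includes Usp17la among the higher and Usp11 among the lower. Both passed the low-count filter only through the line in which they were high. The gene higher in Nrf1KO at 6 h, and that higher in WT from 6 h to 24 h, was Usp17la. With single libraries left out, the genes with a higher interaction at 6 h numbered from 6 to 10. Upper-quartile scaling and library size alone moved the median log2 change of all genes to -0.13 and -0.15 in WT at 6 h and to -0.08 and -0.12 in Nrf1KO at 6 h. At 24 h it moved to -0.11 and -0.08 in WT and to -0.08 and -0.15 in Nrf1KO. Beside these shifts the USP medians were 0.15 and 0.13 in WT and 0.10 and 0.06 in Nrf1KO at 6 h, and 0.28 and 0.32 in WT and 0.17 and 0.10 in Nrf1KO at 24 h. In 5 comparisons library size alone moved the split of all called genes by more than 10 percentage points, with 35.4% in place of 49.6% higher in WT at 6 h, 36.4% in place of 49.7% in Nrf1KO at 6 h and 41.6% in place of 52.0% in Nrf1KO at 24 h. Between the lines it was 57.7% in place of 46.9% in DMSO and 60.8% in place of 49.8% at 6 h. Upper-quartile scaling did so in WT at 6 h (37.9%).

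Of 252 results on single genes, 204 kept direction and call under every alternative run. Of their 3584 alternative values, 151 had the same direction but were no longer called, and 8 had the opposite sign. Changes of sign with library size alone, all then not called, were those of Usp21 (-0.059), Usp42 (-0.023) and Usp8 (-0.009) in Nrf1KO at 24 h, Usp4 (-0.017) and Usp47 (-0.012) in WT at 6 h, Usp47 in Nrf1KO at 6 h (-0.004) and Usp34 in WT at 24 h (-0.029). Usp34 also changed sign with upper-quartile scaling (-0.061). The cause was not tested. Deviations from the group means showed little correlation between libraries of the same number (over 45 pairs from -0.0494 to 0.0972, mean 0.0136). Whether such libraries shared a culture day or batch is not given in the sources used here. With the replicate number as a block, 31 USP genes were higher in WT at 24 h, 29 in Nrf1KO at 24 h, and 19 were lower in the interaction at 24 h, each within 1 of the reported count. Under the block Usp20 in Nrf1KO at 24 h was not called (adjusted p = 0.05). Depth limited Usp11 and Usp17la, each with a library of 0 counts.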

Other observations

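Among the Usp17l relatives under the minimum count, Usp17le had 30, 39 and 33 counts in Nrf1KO CFZ 24 h, 3, 3 and 6 in Nrf1KO DMSO and 1, 2 and 2 in WT CFZ 24 h. Usp17lb had 7, 3 and 4 counts in Nrf1KO CFZ 24 h and 0, 0 and 0 in WT CFZ 24 h. Usp17ld did not share this pattern, with 3, 6 and 3 counts in Nrf1KO CFZ 24 h and 6, 6 and 10 in WT CFZ 24 h. Usp18, a protease for the ubiquitin-like protein ISG15, had from 0 to 6 counts in a library, and so had Usp29.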
